A study of Drosophila melanogaster with 2 samples.

Results

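The genes described here are the 48 proteasome subunit genes of Drosophila melanogaster, out of 13945 protein-coding genes in Ensembl release 115. They were taken by symbol alone, as Prosalpha, Prosbeta, Rpn or Rpt followed by a digit. No binding value entered this rule, but earlier results of these data were known when it was chosen. Of these, 32 are general subunits, namely 7 Prosalpha, 7 Prosbeta, 12 Rpn and 6 Rpt genes. The other 16 carry a T or R suffix and are paralogues of general subunits, several of them known from the testis.

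The proteasome is the large protease that degrades proteins marked with ubiquitin. Its barrel-shaped core is built of outer alpha rings, which gate the entry, and inner beta rings, which hold the catalytic sites. A regulatory particle on top recognises ubiquitin, removes it, and unfolds and feeds in the substrate with a ring of ATPases. Every cell needs the complex, and in fly testis several subunits are replaced by or accompanied by paralogues.

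The measurement was ChIP-seq of Fer1, a basic helix-loop-helix (bHLH) transcription factor related to vertebrate PTF1A, in whole embryos collected 6 to 24 h after laying. The embryos, of mixed sex, came from a transgenic line that expresses Fer1 with a C-terminal GFP, and an antibody against GFP was used for the precipitation. There is 1 group with 2 biological replicates, so no conditions can be compared, and whole embryos mix all cell types. The lists hold no measure of how much Fer1-eGFP was present, and the control library named with the samples was not analysed here, so the part of untagged background in a peak was not tested.

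A gene was counted as having a summit when the highest point of a peak lay within 1 kb of any of its annotated transcription start sites (TSSs). The authors' thresholded list holds 7329 peaks with signal values from 110.1 to 4431 in the authors' units (median 182.1), and these are the 7329 peaks with the highest signal in the list of 30000 peaks from the pooled replicates. A gene with a thresholded summit is called marked, and ranks count from the highest signal in a list. The number of reads is unknown, so intervals on shares cover counting error over genes only, and the 2 replicates are the only check on spread.

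Some general proteasome genes carried thresholded summits and none of their paralogues did. Of the 32 general subunit genes, 18 had a thresholded summit (56.2%, 95% Clopper-Pearson interval 37.7 to 73.6), against 33.1% of all protein-coding genes. Of the 16 paralogues, 0 had one (upper Clopper-Pearson bound 20.6%). Over all 48 members the share was 37.5%, close to that background. Genes of a complex are not samples, so the difference between general genes and paralogues is given without a test. The general genes were not evenly marked, with 14 of 18 regulatory particle genes (77.8%) against 4 of 14 core particle genes (28.6%). The core particle share (interval 8.39 to 58.1) was near the 33.1% of all protein-coding genes. Among the highest peaks of replicate 1 alone, without replicate 2, the regulatory and core particle counts were 12 of 18 and 1 of 14. With all 30000 pooled peaks they were 17 of 18 and 12 of 14, beside 54.4% of all protein-coding genes. In the longer pooled list, which reaches much weaker peaks, 29 of the 32 general genes (90.6%) and 3 of the 16 paralogues (18.8%) had a summit, against 54.4% of all protein-coding genes. The share of general genes therefore depends on how deep the list goes, and when only thresholded peaks above the median signal of the list were counted it was 18.8%, next to 19.1% of all protein-coding genes.

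**Figure D1:**
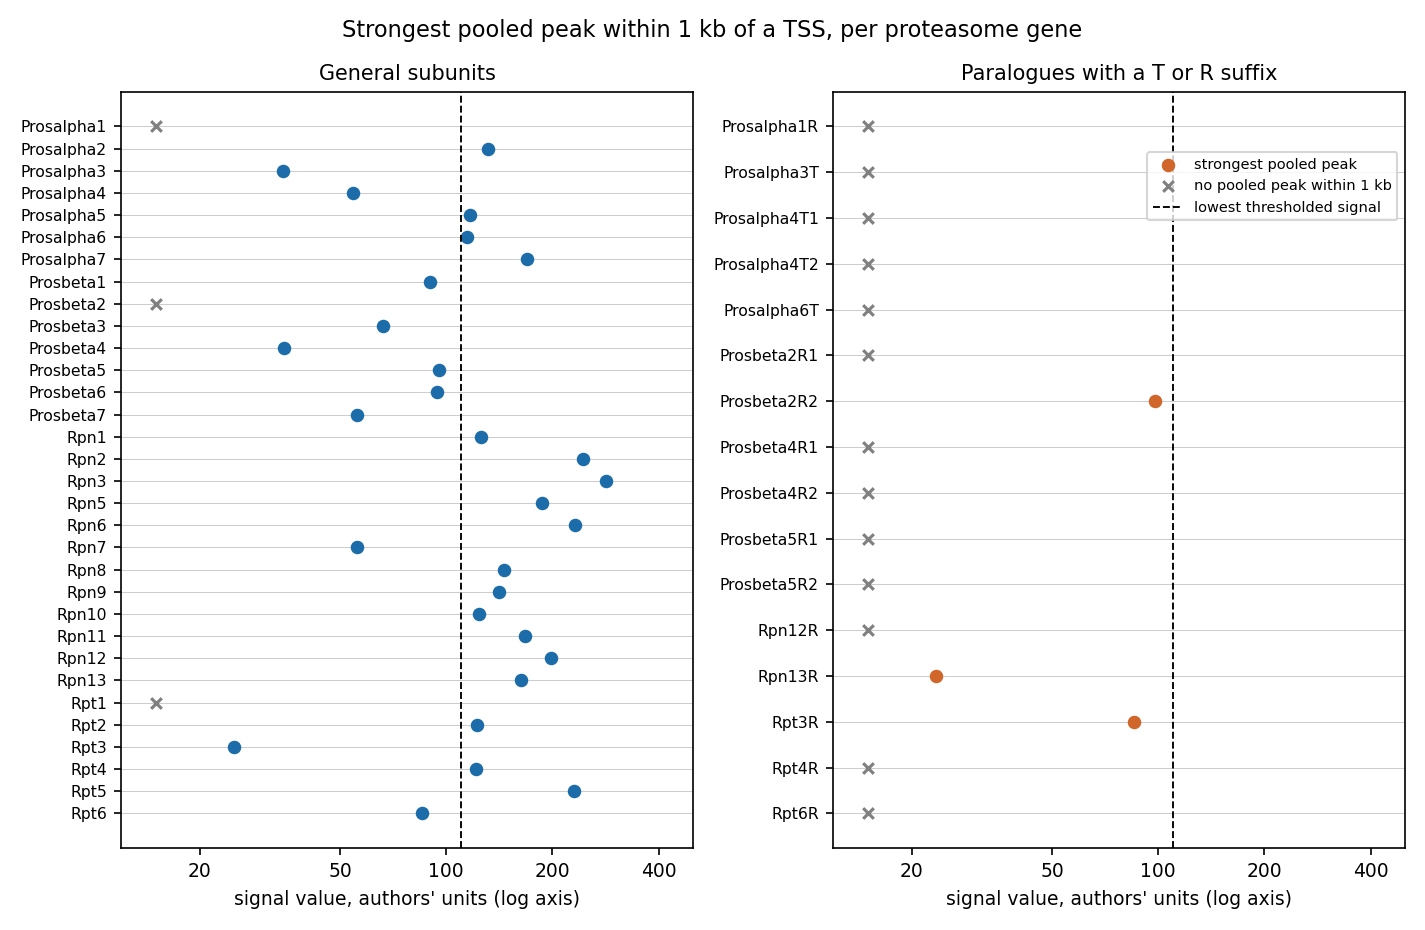
Signal of the strongest pooled peak within 1 kb of a TSS for each of the 32 general subunit genes (left) and the 16 T or R paralogues (right), on a log axis in the authors' units. Crosses, drawn at an arbitrary position, mark genes with no pooled peak, and the dashed line is the lowest thresholded signal, 110.1; 18 general genes lie right of the line and 0 paralogues do.

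The upstream sequences below were read from the Release 6 (dm6) genome on the coding strand. They end at the base before the TSS, hold at most 200 bp and are cut where an annotated exon of any gene begins. Capitals mark matches to CANNTG, the E-box bound by bHLH dimers, and to TATCGATA, the DRE (DNA replication-related element) of many housekeeping promoters in flies. The first 4 belong to the most strongly marked members apart from Rpn6, and each holds the thresholded summit. They are Rpn3 (chr2L:19051613-19051789, plus strand), Rpn2 (chr3R:29153324-29153523, plus strand), Rpt5 (chr3R:23752835-23752875, plus strand) and Rpn12 (chr3L:16582828-16583027, plus strand).
Rpn3: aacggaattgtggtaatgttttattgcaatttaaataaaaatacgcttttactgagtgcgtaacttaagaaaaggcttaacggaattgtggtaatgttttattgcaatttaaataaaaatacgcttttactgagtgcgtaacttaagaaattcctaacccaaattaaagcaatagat
Rpn2: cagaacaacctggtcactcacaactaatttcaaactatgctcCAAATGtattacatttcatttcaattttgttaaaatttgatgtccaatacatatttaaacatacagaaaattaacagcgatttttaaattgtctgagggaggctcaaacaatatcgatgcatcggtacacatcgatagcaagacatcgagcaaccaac
Rpt5: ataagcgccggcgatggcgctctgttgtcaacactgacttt
Rpn12: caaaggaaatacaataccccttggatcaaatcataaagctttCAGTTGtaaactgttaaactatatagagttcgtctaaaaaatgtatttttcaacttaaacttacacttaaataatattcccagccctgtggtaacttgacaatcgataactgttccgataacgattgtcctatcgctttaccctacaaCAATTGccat
Rpn3 and Rpt5 show no match to either motif in these stretches, Rpn2 shows 1 E-box and Rpn12 shows 2. A DRE starts just outside the stretch shown at Rpn3 (197 bp before the TSS), Rpt5 (46 bp) and Rpn12 (216 bp). In Rpn3 a run of 72 bases occurs a second time, unchanged, further along the same stretch, and the summit lies between the second copy and the TSS.

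The next 4 are shown because, within the stretch shown, they carry the DRE without a thresholded summit, or neither motif nor peak. Prosalpha6 (chr2L:10221217-10221350, plus strand) has a thresholded summit, but that summit lies upstream of the stretch shown. Prosbeta2 (chr3L:14999751-14999950, plus strand) and Prosbeta6 (chr3L:16610419-16610618, minus strand) have no thresholded summit, and Rpn12R (chr3L:15042571-15042770, minus strand) is the paralogue of Rpn12. The Prosbeta2 stretch does hold a summit of replicate 2 at rank 5121. That of Prosbeta6 holds its pooled summit, with a signal of 94.4, below the lowest thresholded signal of 110.1.
Prosalpha6: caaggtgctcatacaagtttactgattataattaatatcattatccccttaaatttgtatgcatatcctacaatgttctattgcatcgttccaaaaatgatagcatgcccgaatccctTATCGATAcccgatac
Prosbeta2: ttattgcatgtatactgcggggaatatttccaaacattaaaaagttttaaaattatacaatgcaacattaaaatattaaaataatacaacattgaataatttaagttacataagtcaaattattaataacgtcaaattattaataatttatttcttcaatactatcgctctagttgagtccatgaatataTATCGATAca
Prosbeta6: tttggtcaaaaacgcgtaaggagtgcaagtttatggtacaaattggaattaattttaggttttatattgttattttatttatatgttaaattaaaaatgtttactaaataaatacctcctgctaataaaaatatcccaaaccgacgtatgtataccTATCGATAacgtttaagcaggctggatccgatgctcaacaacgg
Rpn12R: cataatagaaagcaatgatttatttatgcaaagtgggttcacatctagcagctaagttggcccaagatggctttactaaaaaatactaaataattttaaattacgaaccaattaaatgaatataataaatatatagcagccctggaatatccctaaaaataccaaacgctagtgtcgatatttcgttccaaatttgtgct
Prosalpha6, Prosbeta2 and Prosbeta6 each hold 1 DRE near the TSS, and Rpn12R holds no match to either motif.

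Among the Rpn genes, the non-ATPase subunits of the regulatory particle, 11 of 12 had a thresholded summit (91.7%, interval 61.5 to 99.8). The share over all protein-coding genes was 33.1%. Rpn2, a scaffold of the base of the particle, had a signal of 244.4, with rank 2857 in replicate 1 and 2238 in replicate 2. Its summit lay 117 bp before the TSS at position 29153407 of 3R, in intergenic sequence. Rpn1, the other large scaffold, was much weaker, with a signal of 125.1 and ranks 7414 and 5780. The ubiquitin receptors Rpn13 and Rpn10 had signals of 162.6 (ranks 6185 and 3063) and 123.5 (ranks 8464 and 5358). The Rpn10 summit lay 2 bp from its TSS, whereas the Rpn13 summit lay 365 bp upstream, in the 5′ UTR of the neighbour CtsL1, a cathepsin-type protease gene whose TSS was nearer, at 94 bp.

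Of the 8 lid genes, 7 had a thresholded summit (87.5%, against 33.1% of all protein-coding genes), with signals from 141.3 to 284.3. Rpn3, a structural lid subunit, had the highest of all members, 284.3 at rank 1808 of the thresholded list, with ranks 1805 and 2180 in the replicates and a summit 13 bp before its TSS. Rpn6, which bridges lid and core, reached 232.1, with ranks 2091 and 3939. Its summit lay inside the gene in an intron, 89 bp before the nearest of its 2 TSSs. Rpn12, a small lid subunit, had a signal of 197.6, with ranks 3400 and 3188 and a summit 102 bp upstream. Rpn5 had 186.4, with ranks 4334 and 3233, and a second summit of 146.2; the stronger lay in an intron of the neighbour Hat1, a histone acetyltransferase gene, 268 bp from the Rpn5 TSS and 151 bp from that of Hat1. Rpn11, the deubiquitinase that strips ubiquitin from substrates, had 167.2 at 111 bp upstream and a second summit of 117.4 at 316 bp upstream. Its ranks differed, 5736 in replicate 1 and 2852 in replicate 2. Rpn8, the partner of Rpn11, had 145.9 and similar ranks, 5528 and 5735. Rpn9, another structural lid subunit, had 141.3 and ranks 4228 and 7701. Its summit lay in an intron of the gene, 70 bp before the nearest of its 2 TSSs. Rpn7 was the lid gene without a thresholded summit, and its strongest pooled peak had a signal of 55.8 at rank 14909.

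Of the 6 Rpt genes, which encode the ATPases that unfold substrates, 3 had a thresholded summit. Rpt5 stood well above the others, with a signal of 230.8, nearly equal ranks of 2549 and 2541 in the replicates, and a summit 9 bp before its TSS. Rpt2 had 122.4 (ranks 6848 and 6532) and Rpt4 had 121.7 (ranks 5671 and 7895). Both summits lay 40 bp before the nearest TSS of the gene, and that of Rpt2 lay in its 5′ UTR, after its first TSS. The Rpt4 summit was nearer, at 18 bp, to the TSS of the divergent neighbour mldr. Rpt6 had a pooled peak below the threshold, 85.5 at rank 9797, and Rpt3 had one near the end of the list, 25.0 at rank 27574. Its strongest peaks in the replicates, at ranks 11268 and 21494, lay 467 bp apart. Rpt1 had no peak within 1 kb in any list, and the nearest pooled summit was 1450 bp away.

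In the thresholded list the rings of the core differed in count. In the pooled list 6 of 7 genes of each ring had a summit, against 54.4% of all protein-coding genes. Of the 7 Prosalpha genes, which form the gating outer rings, 4 had a thresholded summit (57.1%, interval 18.4 to 90.1). The share of all protein-coding genes was 33.1%. The 4 Prosalpha summits were mostly weak. Among the 7329 highest peaks of replicate 1 alone, without replicate 2, 1 of the 7 had one. Prosalpha7 had a signal of 169.9 with ranks 4135 and 4167 and a summit 64 bp upstream. Prosalpha2 had 131.7, with ranks 8532 and 4176, and its summit at 157 bp upstream lay in the annotated coding sequence of CG5245. Prosalpha5 had 116.7 (ranks 8326 and 6025), with its summit in its own 5′ UTR, 15 bp after the TSS. No other thresholded summit of a member lay downstream of the nearest TSS of its gene. Prosalpha6 had 114.5 (ranks 8292 and 6455), the lowest of the 18, at 587 bp upstream in the 5′ UTR of Npc1a, a sterol transport gene whose TSS was 188 bp away. Prosalpha4 and Prosalpha3 had pooled peaks of 54.3 and 34.4, below the threshold. The Prosalpha3 peak was listed in replicate 1 and not in replicate 2, and Prosalpha1 had no peak in any list.

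No gene of the inner beta ring passed the threshold, 0 of 7 (upper Clopper-Pearson bound 41.0%), against 33.1% of all protein-coding genes. This includes the genes of the 3 catalytic subunits, Prosbeta1, Prosbeta2 and Prosbeta5. Signal was nonetheless present at 6 of the 7 in the pooled list. Prosbeta5, the chymotrypsin-like subunit, had 95.6 at rank 8664, Prosbeta6 had 94.4 and Prosbeta1, the caspase-like subunit, had 89.7. These lie a little under the lowest thresholded signal of 110.1, as the plot of signal per gene shows. Prosbeta3 followed with 66.1, Prosbeta7 with 55.9 and Prosbeta4 with 34.7. Prosbeta2, the trypsin-like subunit, had a peak in replicate 2 only, at rank 5121 and 115 bp before the TSS, and none in replicate 1 or the pooled list. Such a case is uncommon, since 131 of the 4691 coding genes with a summit among the 7329 highest peaks of replicate 2 had no pooled peak.

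**Figure D2:**
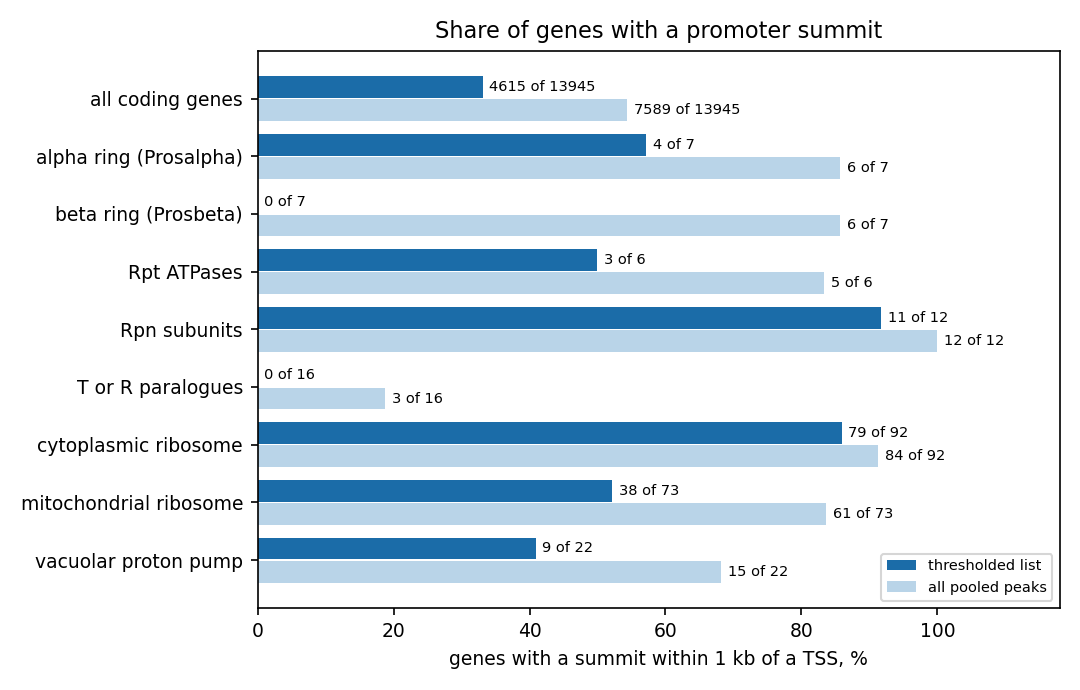
Share of genes whose TSS has a summit within 1 kb, in percent, for all coding genes, the 4 families of general subunits, the paralogues and 3 other complexes; dark bars are the thresholded list and light bars all pooled peaks, with counts beside them. The beta ring has 0 of 7 thresholded and 6 of 7 in the pooled list, and the Rpn genes 11 of 12 and 12 of 12. All coding genes have 33.1% and 54.4%.

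The 16 paralogues derive from 12 general subunits by name. Of those 12, 4 had a thresholded summit, namely Prosalpha6, Rpn12, Rpn13 and Rpt4, next to 33.1% of all protein-coding genes. Pooled peaks were found at 3 paralogues. Prosbeta2R2 had the highest, a signal of 98.2 at rank 8389 and 177 bp upstream, with rank 10286 in replicate 1 and 6685 in replicate 2. Rpt3R had 85.5 at rank 9803, with ranks 19683 and 9581. In the pooled list both exceed the subunit they resemble, since Prosbeta2 had no pooled peak and Rpt3 had 25.0. The order was the other way in 1 replicate each, with Prosbeta2 at rank 5121 in replicate 2 and Rpt3 at rank 11268 in replicate 1. Both also have a close divergent neighbour, CG1116 with its TSS at 129 bp from that of Prosbeta2R2 and Alg12 at 19 bp from that of Rpt3R, and which of the genes a shared peak belongs to was not tested. Rpn13R had 23.4 at rank 28820, 907 bp upstream, with no peak in replicate 2. The other 13 had no peak in any list. They are Prosalpha1R, Prosalpha3T, Prosalpha4T1, Prosalpha4T2, Prosalpha6T, Prosbeta2R1, Prosbeta4R1, Prosbeta4R2, Prosbeta5R1, Prosbeta5R2, Rpn12R, Rpt4R and Rpt6R.

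Sequence that cannot be mapped uniquely fills the start regions of a pair of these genes. Prosalpha1 and Prosalpha1R are near-identical neighbours with TSSs 3093 bp apart, and 0% of the 31-base words in the 2 kb around either TSS occur once in the genome. The lack of peaks at these genes is therefore uncertain, since the sources do not say how reads with several matches were treated. The other 46 members had at least 94.7% unique words, the value of Rpn3. The thresholded peak of Rpn3 overlaps the second copy of its 72-base repeat. How reads from that repeat were treated is also unknown, and its part in the Rpn3 signal was not tested. Without Prosalpha1 and Prosalpha1R, an alternative added after the data were seen, the counts were 18 of 31 and 0 of 15.

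The marked proteasome genes were found in both replicates, but not always among the strongest peaks of both. All 18 thresholded members had a peak in both replicate lists. This is little support by itself, since the thresholded list was made from both replicates and the replicate lists reach much weaker peaks. In 14 of the 18 the strongest summits of the replicates lay within 100 bp of each other. The widest gaps were 271 bp at Rpn13 and 202 bp at Rpn9, so the ranks given for these genes may belong to different summits. Among the 7329 highest peaks of each replicate, 13 of the 18 were present in replicate 1, 16 in replicate 2 and 11 (61.1%) in both. Of all 4615 genes with a thresholded summit 84.9% were in both, and of the 3028 within the members' range of ranks 82.1% were. This difference was not tested. Of the 18, 12 had the better rank in replicate 2. Prosalpha2, Prosalpha5, Prosalpha6, Rpn1 and Rpn10 were not among the highest peaks of replicate 1, and Rpn9 and Rpt4 were not among those of replicate 2.

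**Figure D3:**
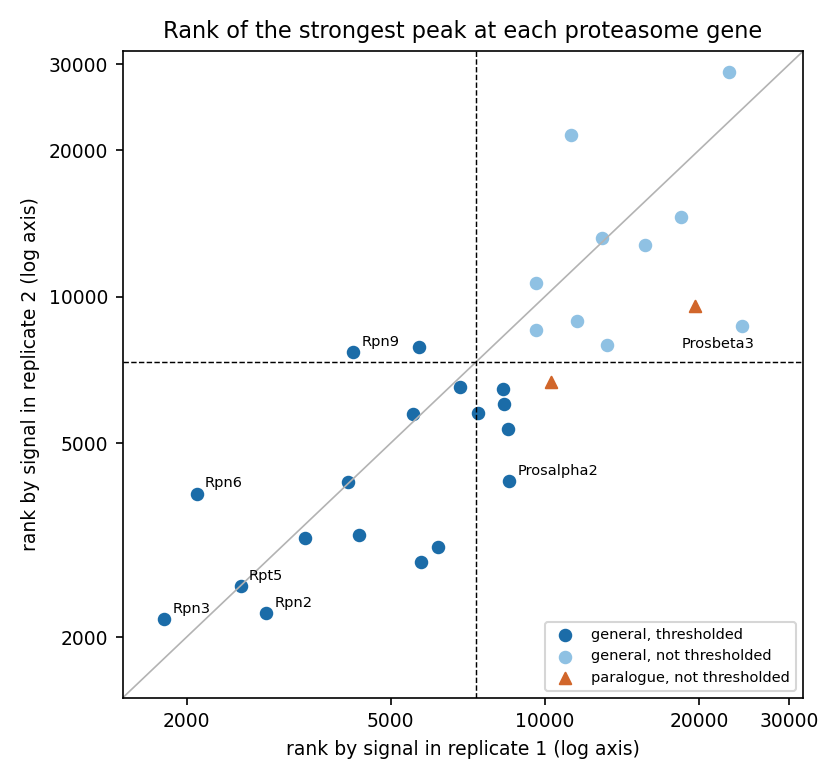
Rank by signal of the strongest peak within 1 kb of a TSS in replicate 1 and replicate 2, on log axes, for each proteasome gene with a peak in both lists; lower ranks are stronger, dashed lines mark rank 7329 and the grey line equal ranks. Rpn3, Rpt5 and Rpn2 are strong in both replicates, and 11 of the 18 thresholded genes lie inside both dashed lines.

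Signals at the marked proteasome genes were moderate. Their median of 154.2 lay below that of all genes with a thresholded summit, 202.2, and 14 of the 18 were below that value. Rpn3, the strongest, was exceeded by 1424 genes, 30.9% of all marked genes. At the other end, 7 of the 18 lay within 20% of the lowest thresholded signal. Other large complexes are set beside these values. Cytoplasmic ribosomal protein genes, at 79 of 92 (85.9%), had a median signal of 409.5. Mitochondrial ribosomal protein genes, at 38 of 73 (52.1%), had 182.3, also below 202.2. Vacuolar proton pump genes, at 9 of 22 (40.9%, interval 20.7 to 63.6), had 299.5. The share of marked genes over all protein-coding genes was 33.1%.

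Summits sat close to the start sites. Of the 18 strongest summits, 17 lay upstream of the nearest TSS of the gene, as did 74.0% over all marked genes. Those of Rpn6, Rpn9 and Rpt2 were nonetheless inside the gene, after its first TSS. Within 200 bp of the nearest TSS lay 14 of the 18 (77.8%, against 62.8% of all marked genes). The median distance was 79.5 bp, and 146 bp over all marked genes. The TSS nearest to the summit belonged to the proteasome gene itself in 14 cases and to a neighbour in 4, at Rpn5, Rpn13, Rpt4 and Prosalpha6. Many of these genes share their promoter region, and 22 of the 32 general genes and 4 of the 16 paralogues have the TSS of another gene within 1 kb, against 48.2% of all coding genes.

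**Figure D4:**
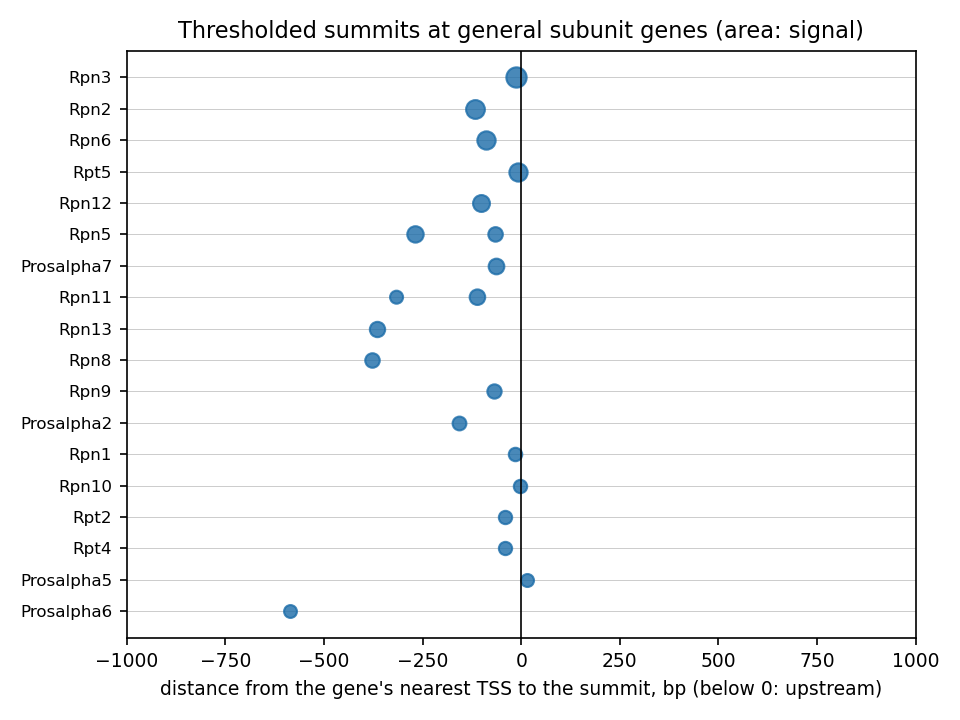
Distance in bp from the nearest TSS of the gene to each thresholded summit within 1 kb, for the 18 general genes in order of signal, with point area in proportion to signal and values below 0 upstream. All strongest summits lie upstream except that of Prosalpha5, and Prosalpha6 is farthest, at 587 bp.

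A neighbour or several TSSs give a gene more chances of a summit, so the counts were also taken within such classes. Among genes with no other TSS within 1 kb, 6 of 10 general genes and 0 of 12 paralogues had a thresholded summit, against 20.6% of all coding genes of that class. Among genes with such a neighbour, the counts were 12 of 22 and 0 of 4, against 46.5%. Among genes with 1 TSS and no neighbour, 4 of 7 general genes and 0 of 11 paralogues had one, against 14.9%. Among genes with 1 TSS and such a neighbour, 6 of 15 general genes (40.0%) and 0 of 3 paralogues had one, against 39.1%, so general genes of this class were marked about as often as others. By the number of TSSs alone, 10 of 22 general genes with 1 TSS were marked, against 25.8%, and 8 of 10 with more, against 53.3%. The paralogues also lie in regions with fewer peaks, with a median of 12.5 pooled summits within 50 kb (range 0 to 43), against 40.0 for general genes and 28.0 for all coding genes. Marked and unmarked general genes overlapped in this measure, with medians of 44.5 (range 7 to 74) and 32.0 (range 18 to 56). The part of the region in the paralogues' lack of summits was not tested.

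The DRE was present in a larger share of general promoters than of all promoters, and the E-box was not. From 250 bp before to 50 bp after the TSS, counting both strands, CANNTG was present at 23 of 32 general genes (71.9%) and 11 of 16 paralogues (68.8%), against 77.2% of all coding genes. Of its forms, CAGCTG was found at 1 general gene, Rpt3, and 1 paralogue, Rpt3R, against 17.7% of all, and CACGTG at 0 of both, against 4.20%. TATCGATA was present at 12 general genes (37.5%) and 0 paralogues, against 9.36% of all coding genes, 14.4% of those with a thresholded summit and 6.86% of those without. Among general genes it did not follow the summits, with 7 of the 18 marked genes and 5 of the 14 unmarked ones. The 12 genes are Prosalpha3, Prosalpha5, Prosalpha6, Prosbeta1, Prosbeta2, Prosbeta6, Rpn3, Rpn7, Rpn9, Rpn12, Rpn13 and Rpt5. The first base of the motif ranged from 217 bp before the TSS at Rpn13 to 10 bp before it at Prosbeta2, and at Rpn7 and Rpn9 it lay after the TSS.

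GGTCACAC, the core of a promoter element known as motif 1, was present at 5 general genes (15.6%) and 0 paralogues, against 7.70% of all. TGACNNNGC, the type of element bound by Cnc with Maf-S, was present at 5 general genes (15.6%) and at Prosbeta4R2, against 8.63%. These letters can overlap, and the matches did so at Prosbeta3 and Rpn1. TATAAA was found at 13 general genes (40.6%) and 5 paralogues (31.2%), against 45.8%. The median GC content of the promoters was 33.5% for general genes, 32.7% for paralogues and 38.0% for all coding genes, so AT-rich and GC-rich motifs have unequal chances in them.

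**Figure D5:**
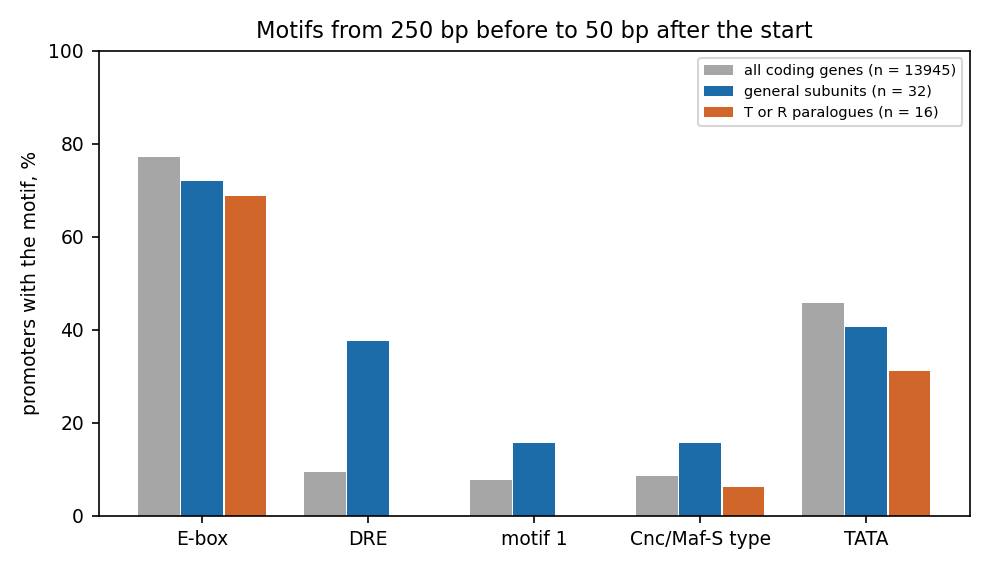
Share of promoters, in percent, that hold each motif on either strand from 250 bp before to 50 bp after the TSS, for all 13945 coding genes, the 32 general genes and the 16 paralogues. E-box is CANNTG, DRE is TATCGATA, motif 1 is GGTCACAC, the Cnc/Maf-S type is TGACNNNGC and TATA is TATAAA; the DRE is at 37.5% of general genes, 0% of paralogues and 9.36% of all.

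In the 101 bp centred on the strongest summit, CANNTG was present at 6 of the 18 marked members (33.3%), namely Prosalpha2, Prosalpha5, Rpn2, Rpn9, Rpn10 and Rpt4. Over 4314 such windows of all summits near coding TSSs the share was 37.6%. Of the 4 strongest members, Rpn3, Rpn6 and Rpt5 had no E-box in that window and Rpn2 had 1. TATCGATA was present in the windows of Prosalpha5 and Rpt5, against 2.92% of all windows, and GGTCACAC and TGACNNNGC in that of Rpn1, against 2.55% and 2.64%. TATAAA was in 3 windows, those of Rpn5, Rpn6 and Rpn11 (16.7%, against 17.8%). CAGCTG and CACGTG were in 0 of the 18, against 7.16% and 1.30%.

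Genes that work with the proteasome were counted by 6 lists of 32 genes, of which 18 (56.2%) had a thresholded summit, against 33.1% of all protein-coding genes. Of the 5 ubiquitin and activating enzyme genes, 4 were marked, namely the polyubiquitin genes Ubi-p63E (154.0) and Ubi-p5E (122.2) and the fusions RpS27A (254.6) and RpL40 (150.2). Both fusions are also counted among the cytoplasmic ribosomal protein genes above, of which 85.9% were marked. The activating enzyme gene Uba1 was not marked, and its pooled peak was 99.4. Of the factors that deliver or trim substrates at the proteasome, the shuttles Rad23 (181.0), Ubqn (177.6) and rngo (144.7) and the deubiquitinase gene Uch-L5 (169.3) were marked, and Usp14 and Uch-L5R were not. Pomp, the chaperone that assembles the core, had a signal of 413.6 at rank 977, above every proteasome subunit. The regulator gene ntc had 262.4, and REG and PI31 had no thresholded summit.

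Of 4 genes linked to the control of proteasome transcription, 3 were marked (75.0%, interval 19.4 to 99.4), against 33.1% of all protein-coding genes. Keap1, which holds the factor Cnc in check, had 851.1 at rank 249, with the summit 886 bp upstream, cnc itself had 350.1, and maf-S, the partner of Cnc, had 136.8. Pngl, the glycanase gene whose mammalian relative processes the Cnc relative, had no thresholded summit. Of the 4 segregase genes, which pull ubiquitin-tagged proteins out of complexes, Ufd1 (125.1) and p47 (170.7) were marked. TER94, the ATPase itself, had a pooled peak of 107.6 and Npl4 one of 94.6, both under the threshold. Of the 9 COP9 signalosome genes, whose products resemble the lid, 3 had one, alien (191.7), CSN8 (187.4) and CSN6 (130.8), a share of 33.3% next to the background of 33.1%.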

How the data were processed

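ChIP-seq peak lists of 2 biological replicates were used, with no reads at hand. Per the labels, chromatin was sonicated to fragments of 200 to 800 bp. Per the file headers and file list, the authors deposited narrowPeak lists on dm6 for each replicate, for the pooled replicates and past an IDR (irreproducible discovery rate) threshold. No aligner, peak caller, IDR threshold or read total is stated in the sources at hand, so depth is unknown. The deposited signal value is the authors' own unit and was compared within a list only. The deposited −log10 q values share a maximum of 4.29 and were not used for ranking. Lists on dm3 were not used.

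Summits were assigned to every gene with a TSS within 1 kb in Ensembl release 115 (BDGP6, the Release 6 assembly, which is dm6), and positions are 1-based. All 48 members are named, each with its strongest listed peak or the lack of one. The members, gene lists and motifs were chosen with earlier results of these data known, so the counts carry no test. Alternatives were windows of 200 bp, 500 bp and 5 kb, other list lengths, each replicate alone, the most upstream TSS, and the peak interval. Sequences came from the RefSeq Release 6 genome. The assignment of summits to genes was tested on simulated data. Python 3.11.15, numpy 2.4.6, pandas 2.3.3, scipy 1.17.1 and matplotlib 3.10.9 were used.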

Additional observations from a re-analysis of the deposited data

How the results depend on the processing

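The count of general genes was 18 with the most upstream TSS or the peak interval, 17 within 500 bp and 15 within 200 bp, and the paralogues stayed at 0 under these 4 alternatives. Within 5 kb, 29 general genes and 3 paralogues (Prosalpha3T, Prosbeta2R2 and Rpt3R) had a thresholded summit, beside 7548 of all coding genes, and the median signal of the general genes was 231.0. With all 30000 pooled peaks the counts were 29, 3 and 7589, and with only the thresholded peaks above the median signal they were 6, 0 and 2662, since fewer or more peaks were counted. With the highest 7329 peaks of 1 replicate alone, the counts ranged from 13 to 17 for general genes, from 0 to 1 for paralogues and from 4581 to 4691 for all coding genes. Replicate 2 alone added Prosbeta2 and the paralogue Prosbeta2R2 and lacked Rpn9 and Rpt4. Replicate 1 alone left 1 of 7 Prosalpha genes. No paired analysis was possible because there is 1 group and the counts come from no test. Depth is unknown, so a missing peak means that none was listed, and weak signal at the paralogues may lie below what these lists hold.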
